A study of Mus musculus with 12 samples.

Results

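Integrins are cell-surface receptors made of 1 alpha and 1 beta subunit, and 10 of their subunit genes were followed here in MC38 mouse colon cancer cells with and without CEACAM1. The members were the alpha subunit genes Itgav, Itga2, Itga3, Itga5 and Itga6 and the beta subunit genes Itgb1, Itgb3, Itgb4, Itgb5 and Itgb7. Every probe of the bead array that the platform annotation names as one of them was taken, which gave 19 of 45281 probes and 10 of 19057 named genes. A probe was kept where its detection p-value, its rank among the negative control beads of the array, was under 0.05 on at least 4 of the 12 arrays. This kept 13 of the 19 probes and left 8 of the 10 members among the 9100 genes tested.

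The CEACAM1-L line expressed the long isoform of CEACAM1, an immunoglobulin-family adhesion protein whose long form carries inhibitory tyrosine motifs in its cytoplasmic tail. The CEACAM1-S line expressed the short isoform, which lacks them, and the control line was deficient in CEACAM1. All 3 lines came from MC38, a metastatic colon cancer line syngeneic to C57BL/6 mice. Every line was harvested after 72 h of culture with 10% serum and selection antibiotics, and each gave 4 RNA samples on 4 arrays. Neither how the isoforms were introduced nor whether a line was 1 clone is stated in the labels. The labels do not say whether the 4 samples came from separate cultures, so p-values describe the spread from array to array and no more, and that spread may be technical.

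In textbook terms, the alpha subunit largely sets which ligand an integrin binds, and the cytoplasmic tail of the beta subunit recruits talin, kindlins and other proteins that couple the receptor to actin. The product of Itgb1 pairs with many alpha subunits, among them those of Itga2, Itga3, Itga5, Itga6 and Itgav, whereas the product of Itgb4 pairs only with that of Itga6. Colon epithelium uses these receptors to hold on to the laminins and collagens under it, and tumour cells use them to attach and migrate.

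The bases before the start of the gene are shown for 2 members that differed between the isoform lines and whose window lies outside every annotated transcript of the gene, Itga5 (higher in CEACAM1-L and lower in CEACAM1-S than in control cells) and Itgb5 (higher in CEACAM1-S than in control cells). The windows are the 250 bases before the RefSeq start on assembly GRCm38.p6, read 5′ to 3′ on the strand of the gene, and the capitals mark GC boxes (GGGCGG or its reverse complement CCGCCC). The Itga5 window lies on the minus strand at chr15:103366792-103367041 and the Itgb5 window on the plus strand at chr16:33829415-33829664.
Itga5: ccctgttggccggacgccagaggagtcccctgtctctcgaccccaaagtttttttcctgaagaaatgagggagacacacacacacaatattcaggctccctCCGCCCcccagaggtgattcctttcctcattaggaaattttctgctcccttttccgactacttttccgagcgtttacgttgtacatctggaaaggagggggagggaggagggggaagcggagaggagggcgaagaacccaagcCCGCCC
Itgb5: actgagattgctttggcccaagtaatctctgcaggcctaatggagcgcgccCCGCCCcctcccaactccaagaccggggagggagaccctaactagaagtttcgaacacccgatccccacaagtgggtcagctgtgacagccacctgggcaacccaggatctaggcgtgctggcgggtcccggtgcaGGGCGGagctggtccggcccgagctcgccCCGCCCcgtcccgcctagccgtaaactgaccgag
The Itga5 window held 2 GC boxes and 55.6% G or C, and the Itgb5 window held 3 and 65.2%. The promoter table had windows for 7 members (Itgav, Itga2, Itga3, Itga5, Itgb1, Itgb5 and Itgb7), 8 in all since Itga3 had 2 starts. A GC box stood in 5 of these 8 windows, against 32.7% of 32851 mouse windows of the same length. The AP-1 letters TGANTCA (6.75% of all windows), the E-box letters CACGTG (6.02%) and the TATA letters TATAAA or TTTATA (12.4%), each searched on both strands, were found in 0 of the 8. A match of letters is a description and not a binding site.

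Array medians lay between 86.6 and 103 units of raw signal, and 14717 to 16071 probes were detected per array (32.5 to 35.5%). Across genes, r was 0.9856 to 0.9935 for arrays of the same group and 0.9587 to 0.9838 for arrays of unlike groups. The arrays fell into 2 sets by their highest raw signal, which was 30290 to 40614 units in a high-signal set (CEACAM1-L 2 and 3, CEACAM1-S 1 and 4, control 2 and 3) and 17443 to 27138 units in a low-signal set of the other 6. Each set held 2 arrays of every group. Ceacam1 itself, the check of the labels, had 6.55 ± 0.12 log2 units in CEACAM1-L and 8.33 ± 0.39 in CEACAM1-S, against 4.92 ± 0.06 in control cells (SD, n = 4). This checks the isoform lines against control, while which isoform each line carried was not checked. Values are log2 of background-corrected, quantile-normalized signal, and a difference is the first group minus the second, with the standard error (SE) of a limma fit across all 9100 genes. Adjusted p is the Benjamini-Hochberg value over those genes, and a gene is called where it is under 0.05. For Ceacam1 the CEACAM1-L minus CEACAM1-S difference was −1.78 ± 0.17 (3.42-fold, adjusted p = 5.18e-08). In comparisons between the isoform lines, isoform and amount of Ceacam1 RNA thus cannot be told apart. In a culture measured in bulk, fewer cells that express a gene and less of its RNA per cell cannot be told apart.

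Markers of colon epithelium were mostly at background: of 13 with a probe, 8 were detected on no array (Epcam, Krt18, Krt19, Krt20, Vil1, Muc2, Lgr5 and Cdh17), and Krt8 alone was detected on all 12. Of 13 leukocyte markers, 8 were detected on no array, Ptprc, Cd3e and Itgam among them, and Cd14 alone on all 12. Platelet markers were read for 4 genes: Pf4 and Ppbp were detected on no array, Gp9 on 2 and Itga2b on 11. Some fibroblast markers were higher in the isoform lines: of 11 with a probe, 4 were detected on no array (Lum, Thy1, Postn and Fap). Of 6 tested, 4 were higher in CEACAM1-L (median 0.81) and 3 in CEACAM1-S against control (median 0.66), with none lower. Of all genes, 18.2% and 12.2% were higher in these comparisons. Col3a1 and Pdgfrb were detected on 0 control arrays, so both passed the detection filter through the isoform arrays alone. With detection required on all 12 arrays, 2 fibroblast markers stayed called in CEACAM1-L and 1 in CEACAM1-S against control. Col1a2, detected on 3 arrays and so not tested, averaged 4.54 in CEACAM1-L, 4.69 in CEACAM1-S and 4.92 in control cells. Dcn, which encodes the matrix proteoglycan decorin, rose by 2.80 ± 0.13 in CEACAM1-L (adjusted p = 5.26e-14) and by 3.29 ± 0.13 in CEACAM1-S cells (adjusted p = 2.5e-15). Endothelial markers were the other list to move: 3 of 8 were detected on no array (Pecam1, Vwf and Emcn). Of 5 tested, 3 were lower in each isoform line (medians −0.85 and −0.70), while 18% and 11.4% of all genes were lower. Cdh5 was detected on 0 CEACAM1-L, 1 CEACAM1-S and 4 control arrays, and Flt1 on 0, 2 and 4. Both thus passed the detection filter only with the control arrays, where they were highest. With detection required on all 12 arrays, 1 endothelial marker stayed called in each comparison with control. Kdr (−0.06 and 0.06) and Tek (−0.17 and −0.18) were not called. Egfl7 fell by 1.16 ± 0.12 in CEACAM1-L (adjusted p = 8.04e-08) and by 0.92 ± 0.12 in CEACAM1-S cells (adjusted p = 4.48e-06). Flt1, a VEGF receptor gene, was detected on none of the CEACAM1-L arrays, at least 2.25-fold lower there than in control cells (adjusted p = 7.8e-06), and fell by 1.13 in CEACAM1-S cells (adjusted p = 1.45e-04). Such a bound sets the mean of the detected group against the lowest signal that counts as detected in the other. Dcn, Egfl7 and Flt1 were chosen after their values were seen, and the part of these markers in the results that follow was not tested.

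**Figure D1:**
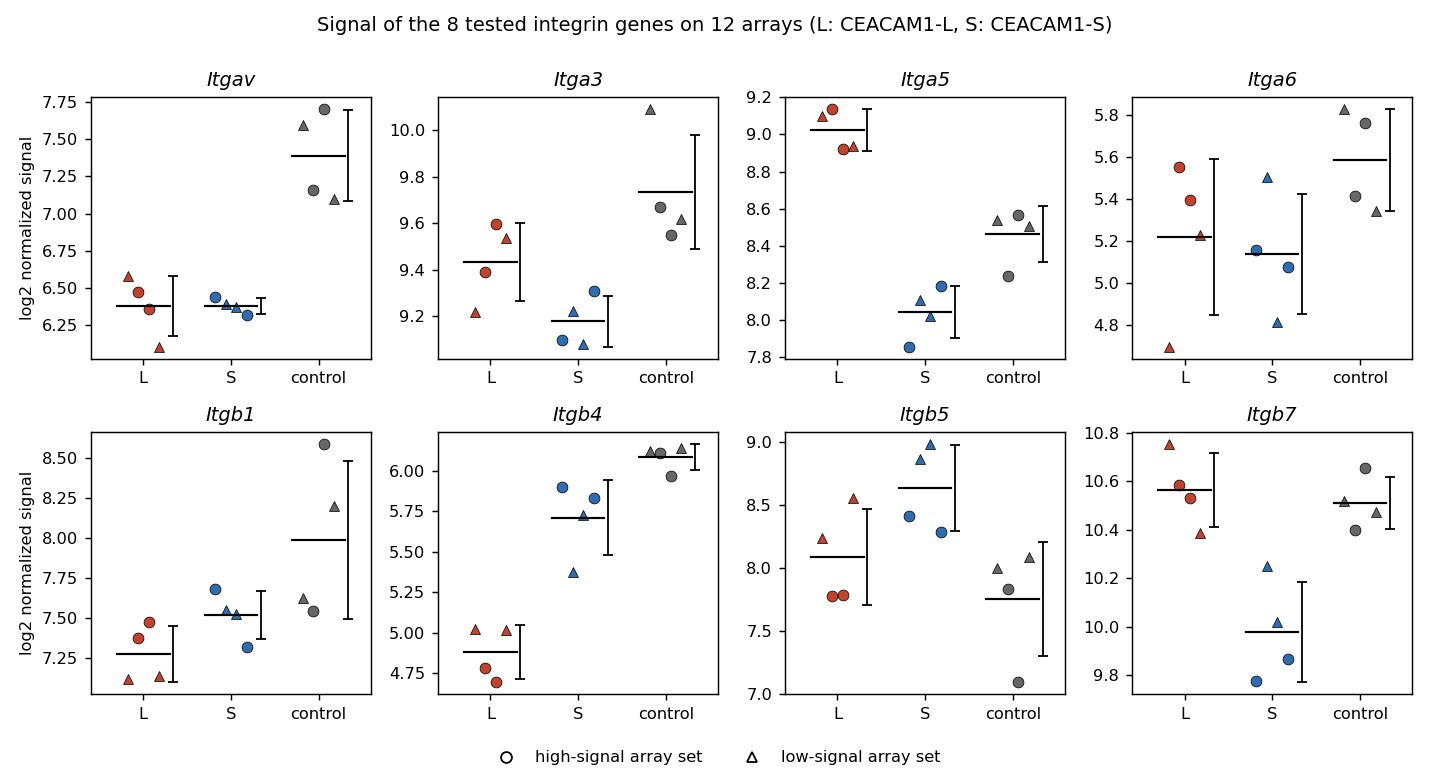
Normalized log2 signal of the 8 tested integrin genes, 1 panel per gene, with 1 point per array for CEACAM1-L (L), CEACAM1-S (S) and control cells; circles are the high-signal and triangles the low-signal arrays, horizontal lines are group means and bars the SD of 4 arrays, and each panel has its own vertical scale. Itgav lies between 6.10 and 6.58 in both isoform lines and between 7.10 and 7.71 in control cells, and Itgb4 steps down to a mean of 4.88 in CEACAM1-L cells.

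Among the 8 tested members, 7 were called in at least 1 of the 3 comparisons, against 49% of all tested genes. The members and the adhesion lists below were chosen with earlier results of these data known, so such shares are descriptions. In CEACAM1-L against control cells 4 of 8 were called, against 36.2% of all genes: Itga5 was higher (18.2% of all genes were), and Itgav, Itgb1 and Itgb4 were lower (18%). In CEACAM1-S against control cells 5 of 8 were called, against 23.6% of all genes: Itgb5 was higher (12.2%), and Itgav, Itga3, Itga5 and Itgb7 were lower (11.4%). In CEACAM1-L against CEACAM1-S cells 4 of 8 were called, against 26.2%: Itga5 and Itgb7 were higher (13.2%), and Itgb4 and Itgb5 were lower (12.9%). At least 2-fold changes were 2 of 8 (Itgav and Itgb4), 1 of 8 (Itgav) and 0 of 8 in these comparisons, against 4.96%, 2.66% and 2.82% of all genes. The arrays of the groups did not overlap for 4, 6 and 3 of the 8, against 32.6%, 23.5% and 25.8% of all genes. Of the 13 kept probes taken singly, 5, 5 and 4 were called, against 31.8%, 19.1% and 22% of all 16330 kept probes. Both comparisons with control share the same 4 control arrays. The median difference of the 8 members was −0.33 in CEACAM1-L against control (all genes −0.01), −0.46 in CEACAM1-S against control (all genes −0.01) and 0.04 in CEACAM1-L against CEACAM1-S cells (all genes −0.02).

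**Figure D2:**
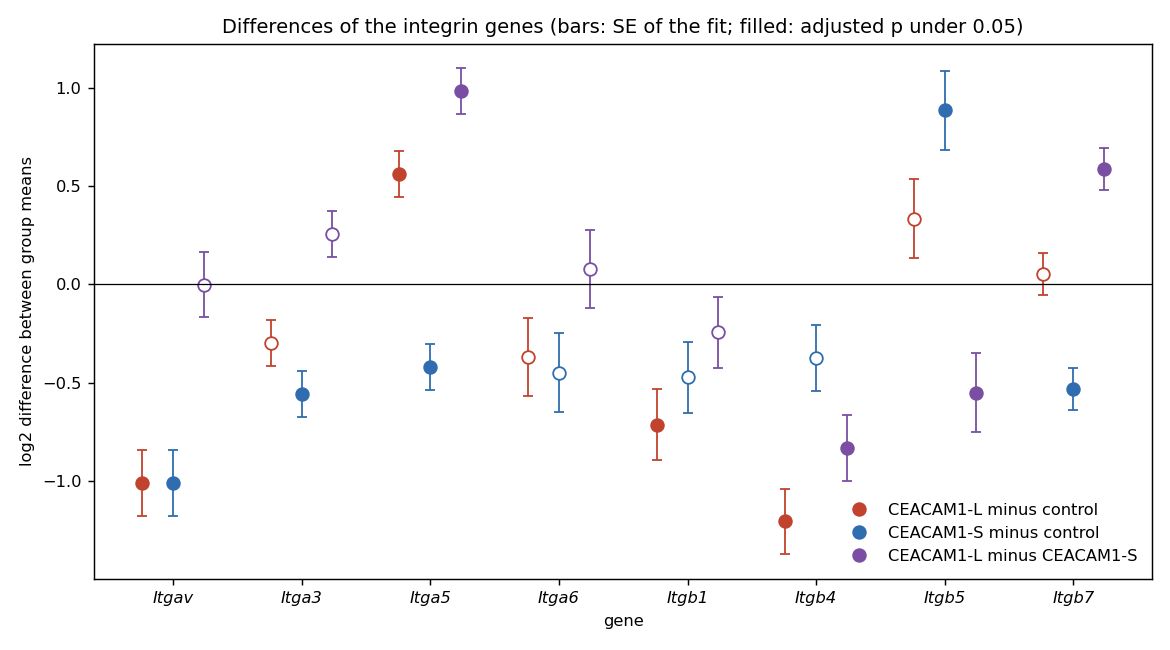
Log2 differences between group means for the 8 tested integrin genes, with 1 point for each comparison, bars showing the SE of the fit, and filled points for adjusted p under 0.05. Itgav sits at −1.01 in both comparisons with control, and Itga5 sits at 0.56 in CEACAM1-L and at −0.42 in CEACAM1-S cells.

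Itgav encodes the alpha V subunit, the partner of several beta subunits in receptors for vitronectin and other ligands with an RGD motif (chromosome 2, 83722303 to 83806917 on GRCm38.p6). Its brightest probe had 6.58, 6.47, 6.36 and 6.10 log2 units on the CEACAM1-L arrays. The CEACAM1-S arrays had 6.44, 6.39, 6.37 and 6.32, and the control arrays 7.59, 7.16, 7.71 and 7.10. Every isoform array lay below every control array, and the isoform lines overlapped. Itgav fell by 1.01 ± 0.17 (SE) on the log2 scale in CEACAM1-L (2.01-fold, adjusted p = 3.28e-05) and by 1.01 ± 0.17 in CEACAM1-S cells (2.01-fold, adjusted p = 5.84e-05). Between CEACAM1-L and CEACAM1-S the difference was −0.00030 with a 95% interval of −0.34 to 0.34 (adjusted p = 0.999). It was the 1 member called lower in both lines, a pattern of 7.14% of all genes.

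The other Itgav probes did not give that step. The second, designed on transcript AK079805, averaged 5.01 ± 0.22 in CEACAM1-L, 5.35 ± 0.25 in CEACAM1-S and 5.41 ± 0.03 in control cells, with differences from control of −0.41 (adjusted p over the 16330 kept probes = 0.0793) and −0.06 (0.855). The third, designed on AK020674, was detected on 5 arrays, with differences of 0.20 and 0.09 from control, neither called. A further 2 probes were detected on no array. With the mean of the 3 kept probes, the Itgav difference from control was −0.41 in CEACAM1-L (adjusted p = 0.0317), while the CEACAM1-S difference of −0.33 was no longer called (adjusted p = 0.107). Without background correction the differences were −0.61 in both lines, and in the authors' processed values −0.51 in both.

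Itga5 encodes the alpha subunit of the classical fibronectin receptor (chromosome 15, 103344286 to 103366791), and it was the 1 member called in opposite directions in the isoform lines, as 0.802% of all genes were. It had 9.10, 9.14, 8.92 and 8.94 log2 units on the CEACAM1-L arrays. On the CEACAM1-S arrays it had 7.86, 8.11, 8.02 and 8.18, and the control arrays 8.54, 8.24, 8.57 and 8.50. The 3 groups did not overlap, with CEACAM1-L highest, control next and CEACAM1-S lowest. Itga5 rose by 0.56 ± 0.12 in CEACAM1-L (1.48-fold, adjusted p = 4.53e-04) and fell by 0.42 ± 0.12 in CEACAM1-S cells (1.34-fold, adjusted p = 0.00925). It was higher in CEACAM1-L than CEACAM1-S cells by 0.98 ± 0.12 (1.98-fold, adjusted p = 7.98e-07). A second probe of the same transcript gave 0.54 in CEACAM1-L (adjusted p over probes = 0.0249), −0.35 in CEACAM1-S (0.208) and 0.89 between the lines (adjusted p = 9.14e-04). The fall in CEACAM1-S cells lost its call within either array set taken alone (−0.39, adjusted p = 0.0673, and −0.46, adjusted p = 0.132), and the rise in CEACAM1-L cells within the low-signal set (0.50, adjusted p = 0.0647).

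Itga3 encodes a laminin-binding alpha subunit (chromosome 11, 95044475 to 95076844). It had 9.22, 9.39, 9.60 and 9.54 log2 units on the CEACAM1-L arrays. CEACAM1-S arrays read 9.10, 9.22, 9.08 and 9.31, and the control arrays 10.09, 9.67, 9.55 and 9.62. The CEACAM1-S arrays lay below all control arrays, the CEACAM1-L arrays lay between and overlapped both, and control array 1 stood highest. Itga3 fell by 0.56 ± 0.12 in CEACAM1-S cells (1.47-fold, adjusted p = 9.81e-04). In CEACAM1-L cells it differed from control by −0.30 ± 0.12 (adjusted p = 0.0509) and from CEACAM1-S by 0.26 ± 0.12 (adjusted p = 0.112), neither past the threshold. Leaving out CEACAM1-L array 3 or 4 or control array 3 or 4 brought the CEACAM1-L difference from control past the threshold (−0.36 to −0.33), as did 3 other alternatives of 24, whose adjusted p ranged from 0.0309 to 0.567. Without control array 1 this difference was −0.18 (adjusted p = 0.23).

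Itga6 encodes another laminin-binding alpha subunit, the partner of the Itgb4 product (chromosome 2, 71786886 to 71858427). Its 1 kept probe, detected on 10 arrays, averaged 5.22 ± 0.37 in CEACAM1-L, 5.14 ± 0.28 in CEACAM1-S and 5.59 ± 0.24 in control cells (SD, n = 4). All 3 groups overlapped. The differences from control were −0.37 (adjusted p = 0.158) and −0.45 (adjusted p = 0.111), and that between the lines was 0.08 (95% interval −0.33 to 0.49). Of 2 further probes, 1 was detected on 1 control array and the other on no array. Itga2, the alpha subunit of a collagen receptor (chromosome 13, 114833081 to 114932100), had 1 probe, which was detected on no array (lowest detection p-value 0.123).

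Itgb1 encodes the most widely shared beta subunit (chromosome 8, 128685654 to 128733579). Its brightest probe had 7.11, 7.37, 7.48 and 7.14 log2 units on the CEACAM1-L arrays. For CEACAM1-S the readings were 7.68, 7.55, 7.52 and 7.32, and the control arrays 7.62, 7.54, 8.59 and 8.20. The CEACAM1-L arrays lay below all control arrays, the closest by a small step, and control arrays 3 and 4 stood well above the other 10 arrays. Itgb1 fell by 0.71 ± 0.18 in CEACAM1-L cells (1.64-fold, adjusted p = 0.00289). Its CEACAM1-S difference from control was −0.47 ± 0.18 (adjusted p = 0.0602), which passed without control array 1 (−0.59) or 2 (−0.62), and the CEACAM1-L minus CEACAM1-S difference was −0.24 ± 0.18 (adjusted p = 0.355).

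A second probe of the same Itgb1 transcript showed no such fall. It averaged 6.83 ± 0.59 in CEACAM1-L, 6.63 ± 0.58 in CEACAM1-S and 6.83 ± 0.58 in control cells, with a CEACAM1-L difference from control of 0.0039 ± 0.29 (adjusted p = 0.994). The high-signal minus low-signal arrays, averaged over the groups, gave −0.93 log2 units for this probe and 0.14 for the brighter one. The part of the array sets in the disagreement was not tested. With the mean of both probes, the fall in CEACAM1-L cells was −0.36 and lost its call (adjusted p = 0.167).

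**Figure D3:**
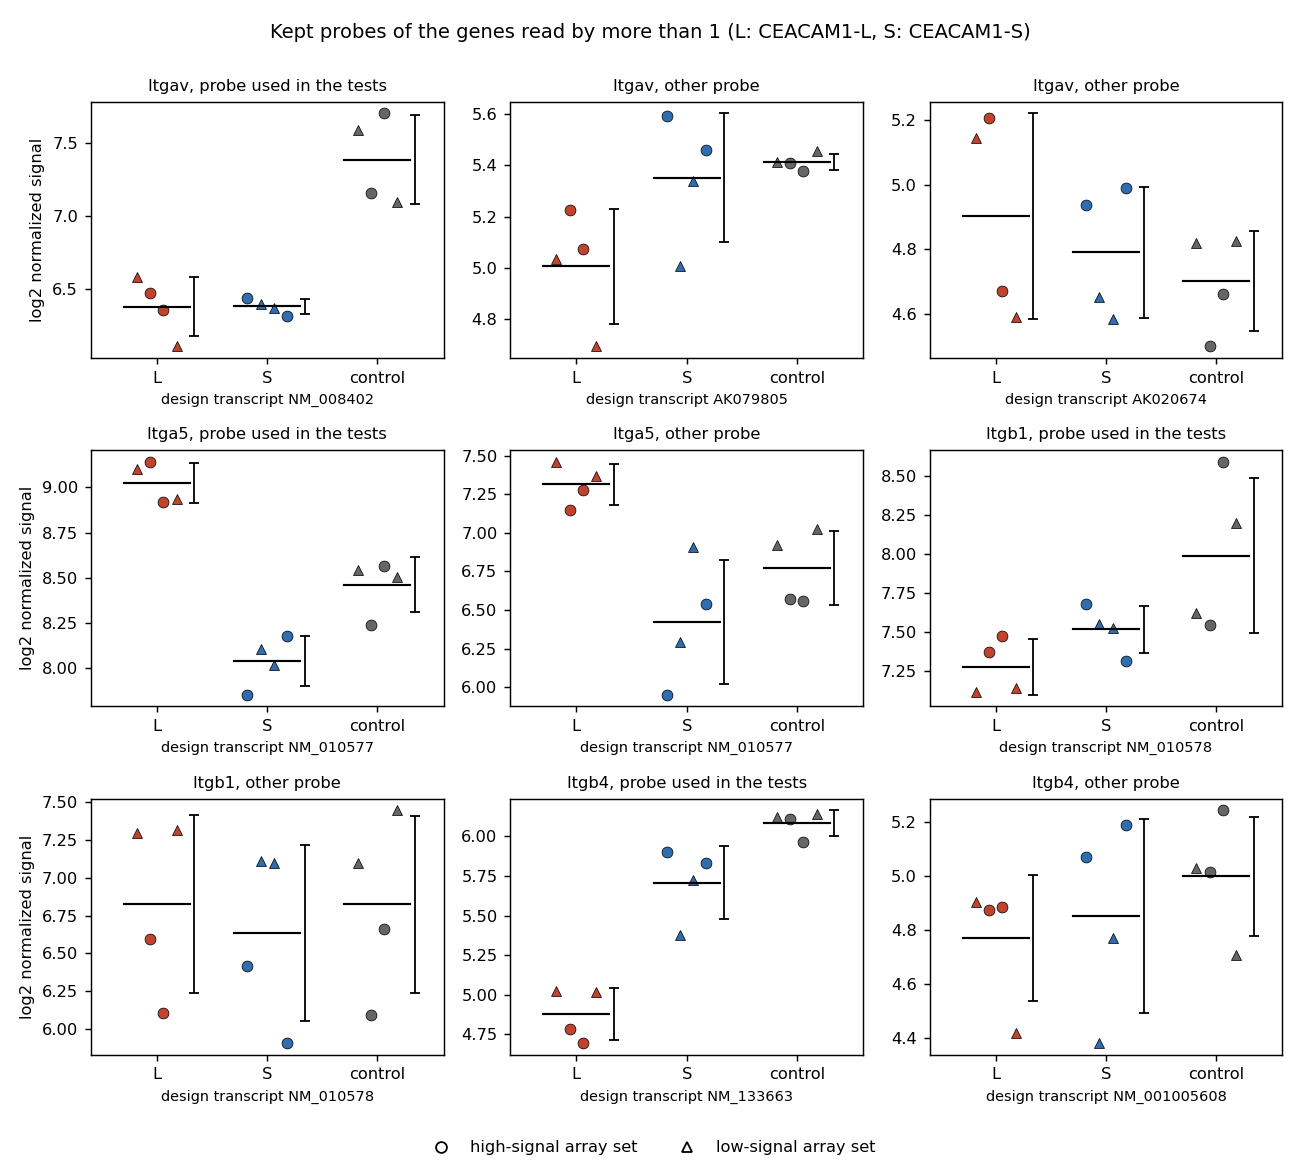
Normalized log2 signal of every kept probe of the 4 members read by more than 1 (Itgav, Itga5, Itgb1 and Itgb4), 1 panel per probe with the transcript it was designed on, and with points, lines and bars as group arrays, means and SDs. Both Itga5 probes put CEACAM1-L cells highest, while the second Itgb1 probe averages 6.83 in CEACAM1-L and 6.83 in control cells with the low-signal arrays (triangles) above the high-signal ones (circles).

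Itgb4 encodes the long-tailed beta subunit that hemidesmosomes use to tie laminin to keratin filaments (chromosome 11, 115974725 to 116008412). Its brighter probe had 5.02, 4.78, 4.69 and 5.02 log2 units on the CEACAM1-L arrays. The CEACAM1-S arrays had 5.90, 5.38, 5.73 and 5.83, and the control arrays 6.12, 6.11, 5.97 and 6.14. The groups did not overlap in any of the 3 comparisons, and the probe was detected on 2 of the 4 CEACAM1-L arrays and on all 8 others. Itgb4 fell by 1.21 ± 0.17 in CEACAM1-L cells (2.31-fold, adjusted p = 3.63e-06), the largest difference from control among the 8 members. It was lower in CEACAM1-L than CEACAM1-S cells, at −0.83 ± 0.17 (1.78-fold, adjusted p = 5.93e-04), while the CEACAM1-S difference from control, −0.38 ± 0.17, did not pass (adjusted p = 0.111).

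The size of the Itgb4 fall changed with the treatment of background. It was −0.45 without background correction (adjusted p = 7.93e-06) and −0.37 in the authors' processed values (adjusted p = 7.94e-06). The second probe, of transcript NM_001005608, was detected on 8 arrays and averaged 4.77 ± 0.24 in CEACAM1-L, 4.85 ± 0.36 in CEACAM1-S and 5.0 ± 0.22 in control cells, with none of its 3 differences called. The difference between the lines lost its call within the low-signal set (−0.53, adjusted p = 0.293).

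Itgb5 encodes a beta subunit that pairs with the Itgav product in a vitronectin receptor (chromosome 16, 33829665 to 33949338). It had 8.24, 7.77, 7.79 and 8.56 log2 units on the CEACAM1-L arrays. On the CEACAM1-S arrays it had 8.42, 8.87, 8.99 and 8.29, and the control arrays 8.0, 7.84, 7.09 and 8.09. The CEACAM1-S arrays lay above all control arrays, and the CEACAM1-L arrays overlapped both groups. Itgb5 rose by 0.88 ± 0.20 in CEACAM1-S cells (1.85-fold, adjusted p = 0.00177). Its CEACAM1-L difference from control was 0.34 ± 0.20 (adjusted p = 0.203).

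Between the isoform lines, Itgb5 was lower in CEACAM1-L than CEACAM1-S cells, with a difference of −0.55 ± 0.20 (adjusted p = 0.0439), a call that 11 of 24 alternatives lost. Leaving out CEACAM1-L array 1, 2 or 3 or CEACAM1-S array 2 or 3 each ended the call, at −0.60, −0.44, −0.45, −0.47 and −0.43 in that order. For the single Itgb5 probe, high-signal minus low-signal arrays gave −0.59. Within the high-signal set the means were 7.78 in CEACAM1-L, 8.35 in CEACAM1-S and 7.47 in control cells, and within the low-signal set 8.40, 8.93 and 8.04, so the order of the 3 groups was the same in both. With the array set as a block, the CEACAM1-L difference from control also passed (adjusted p = 0.0429).

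Itgb7 encodes a beta subunit best known from lymphocytes, where it pairs with the products of Itga4 and Itgae (chromosome 15, 102215994 to 102233405). It had 10.75, 10.59, 10.53 and 10.39 log2 units on the CEACAM1-L arrays. CEACAM1-S arrays read 9.78, 10.25, 10.02 and 9.87, and the control arrays 10.52, 10.40, 10.65 and 10.47. The CEACAM1-S arrays lay below all others, and the CEACAM1-L and control arrays overlapped. Itgb7 fell by 0.53 ± 0.11 in CEACAM1-S cells (1.45-fold, adjusted p = 5.15e-04) and was higher in CEACAM1-L than CEACAM1-S cells by 0.59 ± 0.11 (1.5-fold, adjusted p = 1.89e-04). The CEACAM1-L difference from control was 0.05 (95% interval −0.17 to 0.27).

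Both Itgb7 calls were lost within the low-signal set, at −0.36 in CEACAM1-S against control (adjusted p = 0.162) and 0.44 between the lines (adjusted p = 0.0883). The summed signal of the 13 leukocyte markers ran from 190.2 to 297 units in CEACAM1-L, 155 to 201 in CEACAM1-S and 250 to 323 in control cells, with 8 of the 13 detected on no array in any group. Cd14 was the brightest of them, at 7.45, 6.70 and 7.72 log2 units in CEACAM1-L, CEACAM1-S and control cells. Itgb2, the next brightest, had 4.90, 5.07 and 5.22, so the sum is largely a reading of Cd14. The part of these markers in the Itgb7 difference was not tested. Itgb3, the beta subunit of the platelet fibrinogen receptor and a partner of the Itgav product (chromosome 11, 104608000 to 104670476), had 1 probe, detected on no array (lowest detection p-value 0.118).

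The remaining integrin subunits were hardly measured: of 16 with a named probe, 4 were tested. Itgae, the alpha subunit that pairs with the Itgb7 product and binds E-cadherin, was the 1 of these 4 called. It had 4.56, 4.55, 4.89 and 5.14 log2 units on the CEACAM1-L arrays, against 5.96, 6.0, 5.66 and 5.92 on the CEACAM1-S arrays and 5.57, 5.6, 5.45 and 5.73 on the control arrays. The probe was detected on 2 CEACAM1-L arrays and on all 8 others, and every CEACAM1-L array lay below all of those. Itgae fell by 0.80 ± 0.17 in CEACAM1-L cells (adjusted p = 6.92e-04) and was lower there than CEACAM1-S cells, with a difference of −1.10 ± 0.17 (adjusted p = 3.76e-05). The fall against control lost its call within the low-signal set (−0.80, adjusted p = 0.0599) and ranged from −0.92 to −0.23 over the alternatives. Itga2b, also a platelet marker, differed from control by 0.52 ± 0.21 in CEACAM1-L cells (adjusted p = 0.0541), not past the threshold. In some alternatives of that comparison, among them the replicate block, 1 of the 4 was called higher. Between the lines the Itga2b difference was 0.48 (adjusted p = 0.0919). In CEACAM1-S against control cells limma called 0 of the 4, and 0 had an unadjusted p under 0.05 (lowest 0.0958). The shares called in CEACAM1-L against control, CEACAM1-S against control and between the lines were 25%, 0% and 25%. Those of all genes were 36.2%, 23.6% and 26.2%.

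Genes that switch integrins on or off were called about as often as all genes in both comparisons with control (36.4% against 36.2%, and 27.3% against 23.6%) and at 45.5% against 26.2% between the lines. Of 11 tested, 2 were higher and 2 lower in CEACAM1-L against control (median −0.22), 1 and 2 in CEACAM1-S against control (median −0.01), and 2 and 3 in CEACAM1-L against CEACAM1-S cells (median −0.25). Rap1b, a small GTPase that promotes integrin activation, fell by 0.71 ± 0.09 in CEACAM1-L (adjusted p = 1.61e-06) and by 0.36 ± 0.09 in CEACAM1-S cells (adjusted p = 0.00538). Apbb1ip, the adaptor RIAM that links Rap1 to talin, rose by 0.55 ± 0.14 in CEACAM1-L cells (adjusted p = 0.0039), and so did Krit1, by 0.57 ± 0.18 (adjusted p = 0.0169), a call lost without CEACAM1-L array 3 or 4 or control array 2 (0.50 to 0.51). Dok1, whose product binds beta tails, fell by 0.61 ± 0.14 in CEACAM1-S cells (adjusted p = 0.0017) and Tln2, a talin gene, rose there by 0.79 ± 0.19 (adjusted p = 0.00372), a call lost with the mean of its probes (0.32, adjusted p = 0.103). Between the lines, Dok1 and Apbb1ip were higher in CEACAM1-L cells (0.76 and 0.67) and Tln2 lower (−0.72), all called.

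Proteins of the adhesion plaque, which link integrin tails to actin, were called in 8 of 19 tested cases in CEACAM1-L against control, 1 higher and 7 lower, while the list median was 0.04 and so of the other sign. In CEACAM1-S against control 3 were higher and 3 lower (median −0.15), and in CEACAM1-L against CEACAM1-S cells 3 were higher and 4 lower (median −0.18). The shares called were 42.1%, 31.6% and 36.8%, against 36.2%, 23.6% and 26.2% of all genes. Lpp, a LIM protein of focal adhesions, had 6.68, 6.95, 7.05 and 6.84 log2 units on the CEACAM1-L arrays, 7.50, 7.32, 7.30 and 7.34 on the CEACAM1-S arrays and 7.94, 8.15, 8.92 and 8.11 on the control arrays. The 3 groups were apart, with CEACAM1-L lowest. The CEACAM1-L minus CEACAM1-S difference of −0.49 (adjusted p = 0.0345) lost its call in 14 of 24 alternatives, among them the mean of its probes (−0.22, adjusted p = 0.214). Lpp fell by 1.40 ± 0.17 in CEACAM1-L (adjusted p = 4.56e-07) and by 0.92 ± 0.17 in CEACAM1-S cells (adjusted p = 2.28e-04).

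Of 4 tensin genes tested, whose products bind integrin beta tails, Tns1 and Tns3 were called against control and Tns2 and Tns4 were not. All 8 isoform arrays detected Tns1 and none of the control arrays did. It was at least 1.71-fold higher in CEACAM1-L than in control cells (adjusted p = 1.34e-05), and the bound for CEACAM1-S was at least 3.44-fold (adjusted p = 1.76e-09). Tns1 was lower in CEACAM1-L than CEACAM1-S cells, with a difference of −1.01 ± 0.18 (adjusted p = 1.58e-04). Tns3 fell by 0.69 ± 0.09 in CEACAM1-L (adjusted p = 2.06e-06) and by 0.67 ± 0.09 in CEACAM1-S cells (adjusted p = 5.44e-06). Pxn, which encodes paxillin, was higher in CEACAM1-L than CEACAM1-S cells by 0.49 ± 0.12 (adjusted p = 0.00333), and its fall of 0.38 in CEACAM1-S against control (adjusted p = 0.0233) was lost in 6 of 24 alternatives, among them without CEACAM1-S array 1 or 4 or control array 1 or 4 (−0.36 to −0.35). Parvb, the beta-parvin gene, was also higher in CEACAM1-L than CEACAM1-S cells, by 0.49 ± 0.17 (adjusted p = 0.0379), a call lost in 11 of 24 alternatives, among them without CEACAM1-L array 1 or 2 or CEACAM1-S array 1, 2 or 3 (0.37 to 0.50).

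Kinases and GTPases downstream of integrins (the list of FAK, Src and their partners) were called at 28.6%, 21.4% and 7.14%, against 36.2%, 23.6% and 26.2% of all genes. Ptk2, the FAK gene itself, was not among the 14 tested. Of 14 tested, 1 was higher and 3 lower in CEACAM1-L against control (median −0.08), 2 and 1 in CEACAM1-S against control (median −0.09), and 0 and 1 between the lines (median −0.01). Src fell by 0.63 ± 0.13 in CEACAM1-L (adjusted p = 3.34e-04) and by 0.64 ± 0.13 in CEACAM1-S cells (adjusted p = 5.06e-04), both lost with the mean of its probes (−0.25 and −0.14). In CEACAM1-L cells Bcar1, the docking protein p130Cas, fell by 0.75 ± 0.20 (adjusted p = 0.00401). In CEACAM1-S cells Cav1, which encodes caveolin, rose by 0.54 ± 0.12 (adjusted p = 0.00171) and Rac1 by 0.40 ± 0.12 (adjusted p = 0.0153, lost without CEACAM1-S array 4, at 0.33, or control array 1, at 0.30). Rac1 also rose in CEACAM1-L cells, by 0.47 (adjusted p = 0.00305), with no called difference between the lines (0.07 ± 0.12). Cav1 was lower in CEACAM1-L than CEACAM1-S cells, with a difference of −0.64 ± 0.12 (adjusted p = 3.4e-04).

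Of 4 tested hemidesmosome genes, 2 were lower in CEACAM1-L against control (list median −0.52), 1 in CEACAM1-S against control (median −0.26) and 1 in CEACAM1-L against CEACAM1-S cells (median −0.24), with none higher in these 3 comparisons; these are 50%, 25% and 25%, against 36.2%, 23.6% and 26.2% of all genes. Plec encodes plectin, which joins the Itgb4 tail to keratin filaments. It had 11.60, 11.52, 11.35 and 11.37 log2 units on the CEACAM1-L arrays, against 12.05, 11.96, 11.88 and 12.01 on the CEACAM1-S arrays and 12.21, 12.26, 12.14 and 12.32 on the control arrays. As with Itgb4, CEACAM1-L was lowest and the 3 groups did not overlap. Plec fell by 0.77 ± 0.08 in CEACAM1-L (adjusted p = 1.06e-07) and by 0.26 ± 0.08 in CEACAM1-S cells (adjusted p = 0.0277, lost in 10 of 24 alternatives, among them without CEACAM1-S array 2 or 3 or control array 2 or 4, at −0.26 to −0.23), and was lower in CEACAM1-L than CEACAM1-S cells, with a difference of −0.52 ± 0.08 (adjusted p = 6.82e-05). Erbin, whose product binds the Itgb4 tail, was seen on 3 control arrays and none of the CEACAM1-L arrays, at least 1.39-fold lower in CEACAM1-L than in control cells (adjusted p = 0.0133); without control array 1 that call was lost (−0.42, adjusted p = 0.0837).

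Genes of matrix and cell-surface ligands were called in both directions, at 66.7%, 57.1% and 42.9%, against 36.2%, 23.6% and 26.2% of all genes. Of 21 tested, 10 were higher and 4 lower in CEACAM1-L against control (median 0.19), 8 and 4 in CEACAM1-S against control (median 0.22), and 5 and 4 in CEACAM1-L against CEACAM1-S cells (median 0.03). Thbs2, a thrombospondin gene, had 10.09, 10.04, 10.06 and 9.84 log2 units on the CEACAM1-L arrays, 8.77, 9.25, 8.91 and 8.94 on the CEACAM1-S arrays and 8.58, 8.67, 8.51 and 8.54 on the control arrays. All CEACAM1-L arrays stood above the rest. Thbs2 rose by 1.43 ± 0.11 in CEACAM1-L against control cells (adjusted p = 2.14e-10) and was higher there than CEACAM1-S cells by 1.04 ± 0.11 (adjusted p = 1.35e-07). It also rose in CEACAM1-S against control cells, by 0.39 (adjusted p = 0.00935), a call lost within either array set alone (0.27 and 0.52).

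Other ligand genes were called in 1 or in both lines. Thbs1 rose by 1.18 ± 0.15 in CEACAM1-L (adjusted p = 9.75e-07) and by 1.01 ± 0.15 in CEACAM1-S cells (adjusted p = 1.7e-05). Nid1, a basement membrane linker, rose by 0.88 ± 0.12 in CEACAM1-L (adjusted p = 2.88e-06) and Lamb2, a laminin chain, by 1.07 ± 0.14 in CEACAM1-S cells (adjusted p = 2.13e-06). Lamb2 also rose in CEACAM1-L cells, by 0.50 (adjusted p = 0.00566), and was lower there than in CEACAM1-S cells (−0.58, adjusted p = 0.00268). That rise lost its call within either array set alone (0.38 and 0.61). The Lamb2 call between the lines was lost within the low-signal set (−0.59, adjusted p = 0.123). The Nid1 difference in CEACAM1-S against control was 0.32 (adjusted p = 0.0561), and Nid1 was higher in CEACAM1-L than CEACAM1-S cells by 0.56 (adjusted p = 0.00105). Tgfbi, a matrix protein with integrin-binding motifs, was lower in CEACAM1-L than CEACAM1-S cells, with a difference of −0.81 ± 0.17 (adjusted p = 9.56e-04), and rose by 1.00 in CEACAM1-S against control cells (adjusted p = 9.96e-05). Fn1, which encodes fibronectin, the ligand of the Itga5 receptor, was chosen after its values were seen: it fell by 0.41 in CEACAM1-L (adjusted p = 0.0011), and its CEACAM1-S difference of −0.25 (adjusted p = 0.0487) lost its call in 16 of 24 alternatives, 8 of them with 1 array left out (−0.28 to −0.20).

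Collagen chains, several of which are also in the ligand list, rose in both lines: 7 of 8 tested were higher in CEACAM1-L against control (median 0.62) and 7 of 8 in CEACAM1-S against control (median 1.04), with none lower in either, while 18.2% and 12.2% of all genes were higher. Scaling each array to its median left 2 and 5 of them called, all higher. Col3a1 passed the detection filter through the isoform arrays alone. Col1a2, also of this list, was detected on 3 arrays and so not tested. It averaged 4.54 in CEACAM1-L, 4.69 in CEACAM1-S and 4.92 in control cells. Fibroblast markers moved the same way (4 and 3 of 6 tested higher), and Col1a1, Col1a2 and Col3a1 are in both lists. The part of the fibroblast markers in the collagen differences was not tested. Between the lines 1 of the 8 collagen chains was higher and 4 were lower in CEACAM1-L (median −0.28), while 13.2% and 12.9% of all genes were. Col6a2, a chain of collagen VI, had 8.09, 7.96, 8.03 and 8.59 log2 units on the CEACAM1-L arrays, 9.37, 8.97, 9.21 and 9.44 on the CEACAM1-S arrays and 6.96, 7.01, 7.0 and 6.74 on the control arrays. The groups were apart, with CEACAM1-S highest and control lowest. Col6a2 rose by 1.24 ± 0.14 in CEACAM1-L (adjusted p = 2.28e-07) and by 2.32 ± 0.14 in CEACAM1-S cells (adjusted p = 7.61e-12), and Col6a1 rose by 0.68 ± 0.10 in CEACAM1-L (adjusted p = 5.12e-06) and by 1.49 ± 0.10 in CEACAM1-S cells (adjusted p = 1.83e-11). Col1a1 rose by 1.47 ± 0.20 in CEACAM1-S cells (adjusted p = 5.37e-06) and was lower in CEACAM1-L than CEACAM1-S cells, with a difference of −1.29 ± 0.20 (adjusted p = 3.43e-05). Col4a5 rose by 0.89 ± 0.18 in CEACAM1-L (adjusted p = 3.33e-04) and by 1.09 ± 0.18 in CEACAM1-S cells (adjusted p = 5.96e-05). Col3a1, detected on no control array, was higher than in control cells by a factor of at least 1.36 in CEACAM1-L (adjusted p = 0.00325) and of at least 1.57 in CEACAM1-S cells (adjusted p = 5.65e-04). Neither gene was called between the isoform lines. Itga2, the collagen receptor subunit of the set, stayed under detection on all 12 arrays.

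Membrane partners of integrins, chiefly tetraspanins and co-receptors, were called at 40%, 33.3% and 26.7%, against 36.2%, 23.6% and 26.2% of all genes. Of 15 tested, 3 were higher and 3 lower in CEACAM1-L against control (median 0.07), 3 and 2 in CEACAM1-S against control (median 0.09), and 3 and 1 in CEACAM1-L against CEACAM1-S cells (median 0.10). The tetraspanin genes Cd9 and Cd81 rose in CEACAM1-L cells by 0.66 ± 0.10 (adjusted p = 2.26e-05) and 0.61 ± 0.09 (adjusted p = 5.48e-06). In CEACAM1-S against control cells Cd81 also rose, by 0.43 (adjusted p = 6.19e-04), and the Cd9 difference of 0.30 (adjusted p = 0.0406) lost its call in 12 of 24 alternatives, 5 of them with 1 array left out (CEACAM1-S 2 or 4 or control 1, 2 or 3, at 0.23 to 0.31). Between the lines the Cd81 difference was 0.18 (adjusted p = 0.141). The tetraspanin gene Cd82 rose in CEACAM1-S cells by 0.48 ± 0.11 (adjusted p = 0.00225) and was lower in CEACAM1-L than CEACAM1-S cells, with a difference of −0.54 ± 0.11 (adjusted p = 6.96e-04). Cd44, the hyaluronan receptor, fell by 0.60 ± 0.08 in CEACAM1-L (adjusted p = 4.98e-06) and by 0.96 ± 0.08 in CEACAM1-S cells (adjusted p = 6.61e-09). Plaur, the urokinase receptor, fell by 0.57 ± 0.15 in CEACAM1-L (adjusted p = 0.00377) and by 1.05 ± 0.15 in CEACAM1-S cells (adjusted p = 8.26e-06). Cd44 and Plaur were both higher in CEACAM1-L than CEACAM1-S cells, by 0.36 and 0.49. The Plaur arrays of these lines overlapped, and the Plaur call was lost without CEACAM1-L array 1 (0.35, adjusted p = 0.092). It was also lost within the high-signal set (0.39, adjusted p = 0.0711) and within the low-signal set (0.58, adjusted p = 0.115). The Cd44 call was lost with the mean of its probes (0.18, adjusted p = 0.195) and within the low-signal set (0.31, adjusted p = 0.201).

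**Figure D4:**
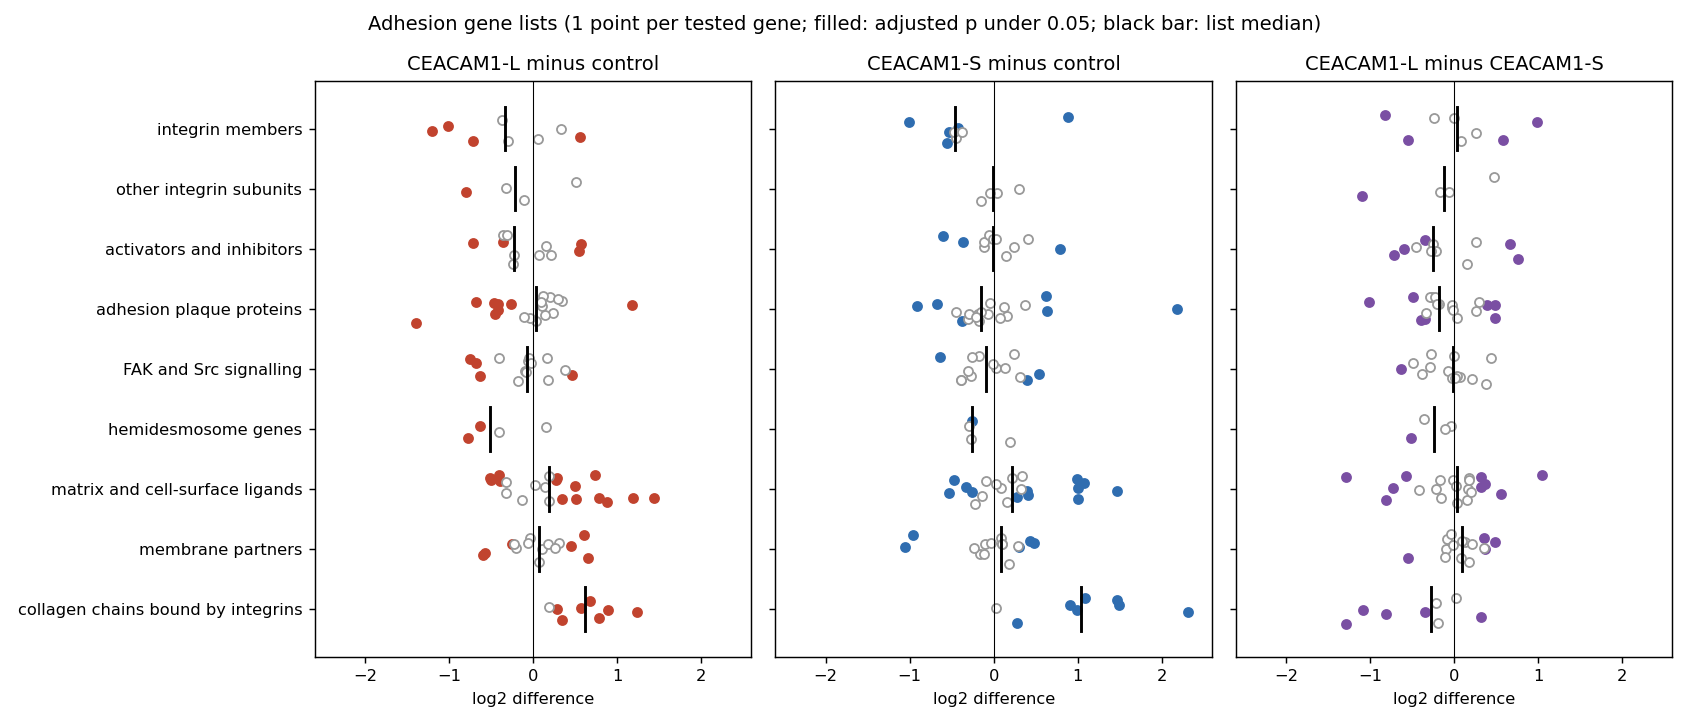
Log2 differences of the integrin members and 8 lists of adhesion genes in the 3 comparisons, with 1 point per tested gene, filled where adjusted p is under 0.05, and black bars at list medians; the vertical scatter within a list has no meaning. The collagen chains lie right of 0 in both comparisons with control (medians 0.62 and 1.04), while the integrin members have medians of −0.33 and −0.46.

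The genes whose pattern over the 12 arrays was most like that of a member were found from the root mean square distance between log2 values, each gene centred on its own mean. Itgav was nearest to Carhsp1 (0.148 log2 units), Slk (0.178) and Phlda1 (0.18), against a spread of Itgav itself of 0.511. Itga5 was nearest to Spindoc (0.118), Stx3 (0.121) and Tprn (0.131), with its own spread at 0.419, and Itgb4 to Polr1e (0.161), Pon2 (0.166) and Ccdc86 (0.175), with its own at 0.525. Itgb7 was nearest to Zswim4 (0.113), Man2a1 (0.117) and Sox9 (0.118), and Itgb5 to Tmod3 (0.162), Aste1 (0.24) and Cgnl1 (0.24). For the others the nearest genes were Irf8, Scoc and Rhou for Itga3, Prrx1, Csnk2a1 and Phf20l1 for Itgb1, and Mecom, Sfswap and Glis3 for Itga6, at distances from 0.114 to 0.211. None of the 8 members was among these nearest genes of another, and all these arrays are shared, so the distances are descriptions.

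**Figure D5:**
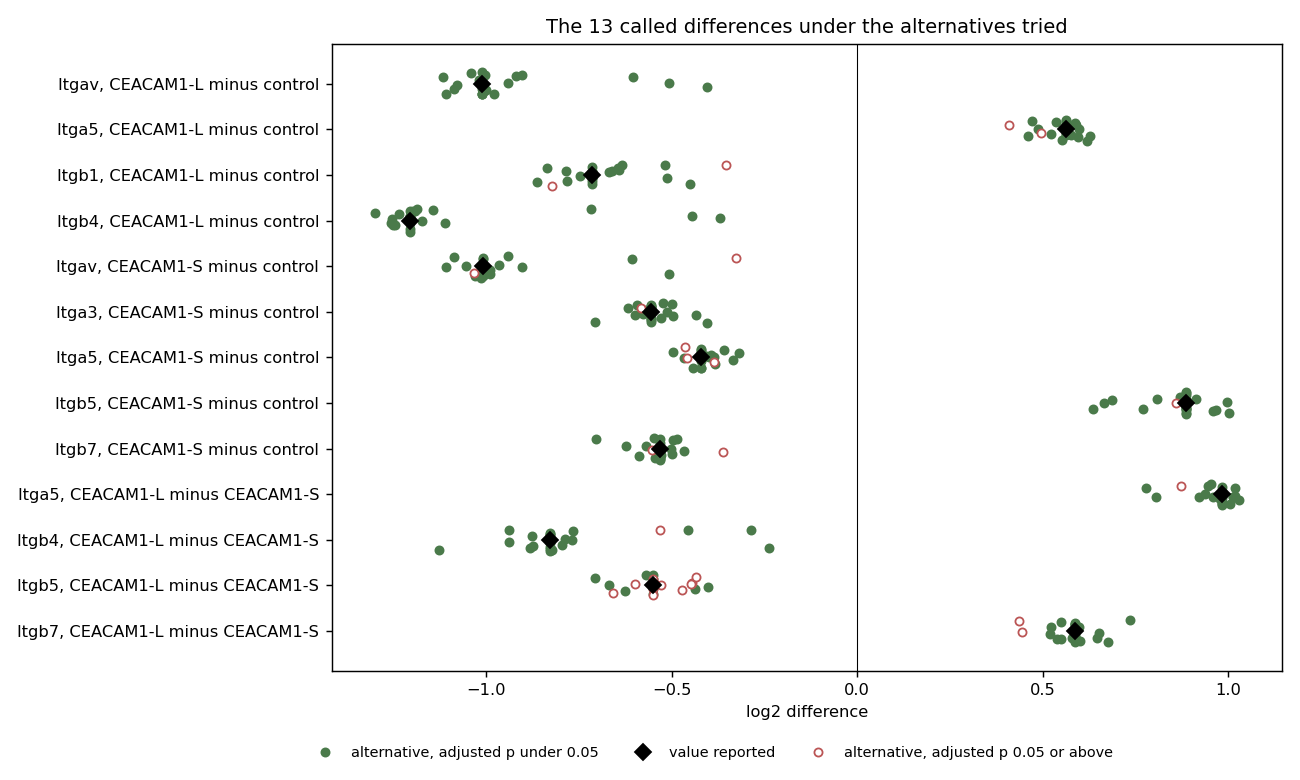
The 13 called differences of integrin genes (black diamonds) and their values under up to 24 alternatives of processing and sample choice, filled green where adjusted p stayed under 0.05 and open where it did not; the horizontal axis is the log2 difference. No point crosses 0, the difference of Itgb5 between the isoform lines has the most open points (11), and the differences of Itgav and Itgb4 in CEACAM1-L against control have none.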

How the data were processed

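RNA from 12 MC38 samples (4 each of CEACAM1-L, CEACAM1-S and control) was measured on Illumina mouse bead arrays with 1 colour; groups and replicate numbers came from the sample titles. The deposited non-normalized table holds a signal intensity and a detection p-value per probe and array, per the file headers. Its lowest intensities, 68.6 to 81.4 units, show that background was still included. The authors' processed values are log2 values with array medians of 7.06 to 7.08, and r with the log2 intensities of their own array was 0.9957 to 0.9999. Neither their normalization nor the chip of each array is stated in the labels; lumi 2.6.0 is named in the submitters' processing notes with no role.

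Probes were named through the platform annotation: 34885 had 1 symbol, 18 several and 10378 none, and 34807 matched assembly GRCm38.p6 by gene ID. Coordinates and promoter sequences are RefSeq's on that assembly. Intensities went through limma 3.58.1 (R 4.3.3) with its function neqc, which corrects background by normexp from the detection p-values, adds an offset (16 here), quantile-normalizes and takes log2. The brightest kept probe stood for a gene. All 12 arrays entered 1 lmFit model of group means and eBayes with a trend (9 residual and 15.5 prior degrees of freedom), two-sided, after a test on simulated data; every adjusted p given is limma's, over 9100 genes or 16330 probes. The number of arrays limits the precision.

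The members and the adhesion lists were chosen with earlier results of these data known. All members are named, with up to 3 called genes of the largest difference per list and comparison, the 3 nearest genes of each tested member, Ceacam1, and Fn1, Dcn, Egfl7 and Flt1 as said; 1 gene that this rule names is not reported here. Marker sums are background-corrected signals less the offset. The same-numbered arrays of different groups deviated from their group means at r between −0.198 and 0.187. Arrays of different groups had r of 0.0408 to 0.255 within an array set and −0.27 to −0.0343 across sets. Same-numbered CEACAM1-L and control arrays share a set, and same-numbered CEACAM1-S arrays lie in the other. The check therefore cannot tell whether the numbers pair samples. Alternatives changed the scaling, background, source of values, filter, probe choice, variance model, weights, blocks, array set and each array in turn.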

Additional observations from a re-analysis of the deposited data

Results flagged for a closer look

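The isoform lines differed from each other, by a test of that difference in the limma fit, in 4 of the 8 tested integrin genes, against 26.2% of all 9100; the effects against control share the same control arrays. Itga5 was higher in CEACAM1-L than CEACAM1-S cells by 0.98 log2 units (adjusted p = 7.98e-07), with 4 of 4 CEACAM1-L arrays above every CEACAM1-S array. Itgb7 was higher by 0.59 (adjusted p = 1.89e-04), again in 4 of 4 arrays. Itgb4 was lower in CEACAM1-L cells, with a difference of −0.83 (adjusted p = 5.93e-04), in 4 of 4 arrays, at values near the detection limit. Itgb5 was lower, at −0.55 (adjusted p = 0.0439), with overlapping arrays. Ceacam1 itself also differed between the lines (−1.78), so isoform and amount of Ceacam1 RNA cannot be told apart here. Of the 24 sets of 4 arrays formed by 8 genes and 3 groups, 0 held an array that stood apart by Dixon's test.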

How the results depend on the processing

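None of the 13 called differences changed sign in any of the 24 alternatives that gave it a value. The call most often lost was Itgb5 between the isoform lines (11 alternatives). Scaling each array to its median in place of quantile normalization kept 3 of the 13 calls (Itgav and Itgb4 in CEACAM1-L against control, and Itgb4 between the lines), with standard errors of 0.26 to 0.35. It left 2 members called in CEACAM1-L against control, 0 in CEACAM1-S against control (2 at an unadjusted p under 0.05) and 1 in CEACAM1-L against CEACAM1-S (probes: 2, 0 and 1), and 644, 276 and 295 of all genes. It moved the median of all genes to −0.11, −0.03 and −0.11 and the share called higher to 39% from 50.2% in the first comparison and to 42% from 50.5% in the last. Among the low-signal arrays alone, 3 members were called in CEACAM1-S against control and 1 in CEACAM1-L against CEACAM1-S (probes: 3, 3 and 1 in the 3 comparisons), and 1678, 893 and 677 of all genes, from 2 arrays a group; 7 of 13 calls held there and 12 in the high-signal set. The cause was not tested.

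Leaving out 1 array at a time gave 2923 to 3350, 1774 to 2202 and 1937 to 2491 called genes, 4 to 5, 5 to 6 and 3 to 4 members, and 4 to 6, 4 to 6 and 4 to 5 probes. Differences that turned sign were all uncalled. They were Itgb7 in CEACAM1-L against control (−0.11 with scaling to the median, the shift of all genes there; −0.010 to 0.11 with 1 array left out), Itgav between the lines (0.0023 without background correction, 0.0092 with array weights, 0.037 within the high-signal set, and −0.068 to 0.091 with 1 array left out) and Itga6 between the lines (−0.20 within the low-signal set, and −0.032 to 0.25 with 1 array left out). With the replicate block, 12 of 13 calls held (Itgb5 between the lines lost it, adjusted p = 0.0521), with 4, 5 and 3 members and 3154, 1972 and 2250 genes called. Requiring detection on all 12 arrays removed Itga6 and Itgb4 and kept the other 11 calls. Scaling to the median left in CEACAM1-L, CEACAM1-S (each against control) and between the lines 0, 0 and 0 of 11 activators called (1, 1 and 3 at an unadjusted p under 0.05), 2, 1 and 1 of 19 plaque genes, 0, 0 and 0 of 14 FAK and Src genes (3, 0 and 1 unadjusted), 1, 0 and 0 of 4 hemidesmosome genes (2, 0 and 1 unadjusted), 3, 3 and 2 of 21 ligands, 2, 5 and 2 of 8 collagens and 0, 0 and 0 of 15 membrane partners (2, 2 and 0 unadjusted). It kept 24 of 81 called differences of named list and marker genes, against 48 within the low-signal set; none turned sign. A gene under the detection limit, such as Itga2 or Itgb3, could change unseen.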
